A study of Mus musculus with 2 samples.

Results

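The G1 cell cycle entry genes *Ccnd1*, *Ccnd2*, *Ccnd3*, *Cdk4*, *Cdk6*, *Myc*, *Mycn*, *Cdkn1a*, *Cdkn1b* and *Cdkn2c* were examined in murine ureters in which WNT secretion was inhibited. They were chosen by gene name, as G1 regulators of which some are known WNT targets, and all their probes were used. This gave 10 of the 29924 gene names on the array and 17 of its 39429 probes. Ureters of newborn (P0) wild-type NMRI mice were kept as explants for 18 h, and the medium held either IWP-2 at 5 µM or its solvent DMSO. IWP-2 inhibits PORCN, the acyltransferase that WNT ligands need for secretion, so the whole explant is affected and no cell type is singled out. RNA was taken from whole ureters, pooled from several ureters of 1 sex, and each array compared a control pool with a treated pool. Replicate 1 held the female pools, with the control in green and IWP-2 in red, and replicate 2 held the male pools with the dyes swapped. Sex and dye orientation therefore cannot be told apart, and 2 arrays limit the precision of all values below.

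Entry into the cell cycle is decided in G1. Mitogens, among them WNT signals in some tissues, raise D-type cyclins, which activate CDK4 and CDK6, and these kinases phosphorylate the retinoblastoma protein and release E2F factors that switch on genes for DNA replication. MYC and MYCN are transcription factors that drive growth and proliferation. The CIP/KIP proteins p21 (*Cdkn1a*) and p27 (*Cdkn1b*) and the INK4 protein p18 (*Cdkn2c*) hold the kinases back. *Ccnd1* and *Myc* are textbook targets of β-catenin and TCF/LEF factors in colon cancer cells. As the study followed the proliferation of lamina propria fibrocytes and smooth muscle cells, the question here was whether the transcripts of these genes differed after 18 h without WNT secretion.

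Signals are background-corrected and dye-normalized intensities in arbitrary units. Ratios are given as log2 of IWP-2 over control, and a mean is that of the 2 arrays. A gene was represented by its brightest probe and tested with limma, a linear model that shares the spread between arrays across genes, if its mean signal exceeded 100 in either condition. This held for 14336 genes and for 9 of the 10 genes described here, *Cdk6* being too dim. As a check of the treatment, *Axin2*, a feedback gene of WNT signaling, had a mean log2 ratio of −1.91 (limma adjusted p = 0.000824), whereas *Porcn*, which encodes the drug target, had −0.04 (adjusted p = 0.958). Limma called 127 genes lower and 52 higher at an adjusted p under 0.05 (108 and 85 with median centring in place of loess), that is, 0.886% and 0.363% of the genes tested and together 1.25%. Between 67.8% and 69.4% of the probes were flagged as well above background in each channel.

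None of the G1 entry genes passed the test. Limma called 0 of the 9 tested genes at an adjusted p under 0.05, against the 1.25% of all genes, and 2 of them (*Mycn* and *Cdkn2c*) at an unadjusted p under 0.05, a level that 12.9% of all genes reached. With every probe tested on its own, 0 of their 13 tested probes were called, against 0.772% of 18403 probes. The filter of the study, a control signal above 100 and a 1.5-fold difference in both arrays, kept 0 of them and 0.441% of the 14051 genes with such control signals. Of the 9 genes, 6 lay below 0 in both arrays, 0 lay above 0 in both and 3 had opposite signs, and the corresponding shares of all genes tested were 29.1%, 25.7% and 45.2%. Their median log2 ratio was −0.07 in replicate 1 and −0.08 in replicate 2, beside a median of −0.00420 and −0.00494 over all genes. The mean ratios ranged from −0.38 to 0.12, and the smallest mean among the genes that limma called was 0.41 in size. A count of 0 calls therefore does not show that genes with smaller ratios, as all these were, did not differ, and this holds for the lists below as well. The 95% intervals of the 9 means together spanned −0.54 to 0.36, so none of them reached a 1.5-fold difference in either direction.

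**Figure D1:**
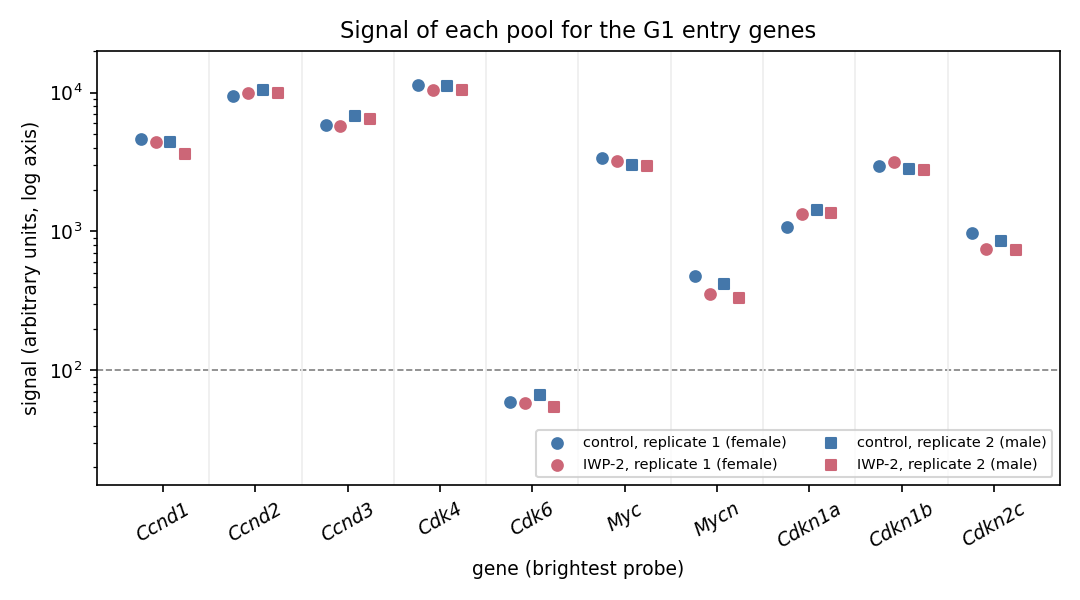
Signal of each gene's brightest probe (log axis, arbitrary units) in the 4 pools, with control pools in blue, IWP-2 pools in red, female pools as circles and male pools as squares. The dashed line is the signal of 100 below which genes were not tested, and only *Cdk6* lies under it. In *Mycn*, *Cdkn2c* and, by a small margin, *Cdk4* both IWP-2 pools lie below both control pools, and in the other tested genes the control and IWP-2 pools overlap. Heights of different probes are not comparable levels.

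The D-type cyclins carry the mitogen signal to the cell cycle. The *Ccnd1* signals of control and IWP-2 pool were 4614 and 4384 in replicate 1, and 4372 and 3619 in replicate 2. The IWP-2 pool of the male array was thus the low one of the 4, and the female IWP-2 pool lay just above the male control. The log2 ratios were −0.07 and −0.27, with a mean of −0.17 (standard error 0.077, 95% interval −0.36 to 0.01, limma adjusted p = 0.435). As a fold this is 0.887 of the control, with an interval from 0.780 to 1.01. A single probe represents *Ccnd1*, at chr7:152116202-152116261 on the minus strand of mm9.

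*Ccnd2* gave signals of 9439 and 10000 in the control and IWP-2 pools of replicate 1 and of 10439 and 9854 in replicate 2. The arrays moved by the same amount in opposite directions (0.08 and −0.08), so that the mean was 5.04e-05 (standard error 0.074, 95% interval −0.18 to 0.18, limma adjusted p = 0.9999). *Ccnd3* had 5857 and 5734 in replicate 1 and 6779 and 6469 in replicate 2. The treated pool was the lower one in both arrays, by less than the 2 control pools differed from each other. Its mean ratio was −0.05 (standard error 0.067, 95% interval −0.21 to 0.11, limma adjusted p = 0.932). A second *Ccnd3* probe, at chr17:47736267-47736326 of mm9 and so upstream of the first at chr17:47736579-47736638, gave −0.03 and −0.09.

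*Cdk4*, the kinase partner of the D-type cyclins, was measured by 4 probes, which made it the best covered of these genes. The brightest gave 11275 in the control and 10360 in the IWP-2 pool of replicate 1, and 11152 and 10465 in replicate 2, so both treated pools lay below both controls. Its log2 ratios were −0.12 and −0.09 (mean −0.11, standard error 0.067, 95% interval −0.27 to 0.05, limma adjusted p = 0.679). The other probes had means of −0.13, −0.12 and −0.12. All 8 values from the 4 probes lay between −0.18 and −0.08, but the probes read the same 4 pools and are not replicates. The fold of the brightest probe was 0.929, with an interval from 0.831 to 1.04. *Cdk6*, the second kinase, was dim, with signals of 58.7 and 58.5 in replicate 1 and 65.9 and 54.0 in replicate 2. Its ratios of −0.00433 and −0.29 were not tested, and the 4 spots of replicate 1 scattered with an SD of 0.12, against 0.024 for the brightest *Cdk4* probe.

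The *Cdk4* promoter is shown because it carries more matches to the MYC binding motif than the other promoters examined. It spans chr10:127063285-127063584 on the plus strand of GRCm38.p6 (RefSeq), from 250 bases before the start of the gene to 50 bases after it, and capitals mark the E-box CACGTG, to which MYC and its partner MAX bind, and a TCF/LEF motif (CTTTGAT, here as its reverse complement ATCAAAG).
Cdk4 promoter: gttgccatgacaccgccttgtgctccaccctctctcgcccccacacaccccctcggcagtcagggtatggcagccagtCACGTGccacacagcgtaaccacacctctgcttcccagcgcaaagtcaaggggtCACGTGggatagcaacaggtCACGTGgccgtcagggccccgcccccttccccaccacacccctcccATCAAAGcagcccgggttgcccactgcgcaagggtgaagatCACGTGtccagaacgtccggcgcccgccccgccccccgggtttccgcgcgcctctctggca
The E-box was matched 4 times, with first bases 172, 118, 98 and 11 bases before the start, and the TCF/LEF motif once, 52 bases before it. Of 32851 promoter windows, 7.15% hold this E-box and 3.73% hold CTTTGAT on either strand. A match is a description of the letters and does not show that a factor binds there.

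The MYC factors differed in their values. *Myc* had signals of 3387 and 3222 in replicate 1 and of 2998 and 2936 in replicate 2. The ratios of −0.07 and −0.03 gave a mean of −0.05 (standard error 0.067, 95% interval −0.21 to 0.11, limma adjusted p = 0.924), and the control pools of the 2 arrays lay further apart (0.18 on the log2 scale) than control and treated pool within either array. *Mycn*, the family member best known from embryonic organs, had the lowest ratio of the 9 genes. Control and IWP-2 pool had signals of 475 and 355 in replicate 1, and of 420 and 332 in replicate 2. Both treated pools lay below both control pools, and all 4 spots of either array, before the loess step, lay below 0, from −0.47 to −0.39 in replicate 1 and from −0.41 to −0.28 in replicate 2. The log2 ratios were −0.42 and −0.34, with a mean of −0.38 (standard error 0.068, 95% interval −0.54 to −0.21). The fold was 0.769, with an interval from 0.686 to 0.862. *Mycn* missed the threshold with a limma adjusted p of 0.0681 (unadjusted 0.00113, rank 237 of the genes tested), and 2.86% of all genes had a larger mean ratio in size. The lower end of the *Myc* interval (−0.212) lay just above the upper end of the *Mycn* interval (−0.215), and the difference between these genes was not tested.

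The *Mycn* promoter is shown because this gene had the lowest ratio and its window holds both kinds of motif that relate to the question. It spans chr12:12941787-12942086 on the minus strand of GRCm38.p6 (RefSeq), again with 250 bases before the start of the gene, and capitals mark the E2F motifs TTTCGCGC and TTTGGCGC and the TCF/LEF motif CTTTGAA, each searched on both strands.
Mycn promoter: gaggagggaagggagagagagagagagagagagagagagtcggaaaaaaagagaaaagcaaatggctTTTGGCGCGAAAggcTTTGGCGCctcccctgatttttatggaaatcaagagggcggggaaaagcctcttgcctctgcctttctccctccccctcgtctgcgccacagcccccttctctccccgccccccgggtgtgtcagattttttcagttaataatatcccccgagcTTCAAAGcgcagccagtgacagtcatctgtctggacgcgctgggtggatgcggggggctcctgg
The E2F motifs were matched 3 times, with first bases 183, 179 and 168 bases before the start. The first pair overlap and form 1 run of capitals, in which the reverse complement GCGCGAAA is the second match. The TCF/LEF motif, as its reverse complement TTCAAAG, begins 14 bases before the start. TTTCGCGC occurs in 0.32% of all promoter windows, TTTGGCGC in 0.51% and CTTTGAA in 5.14%. Promoter windows were found for 7 of the 10 genes, 10 windows in all, and *Ccnd1*, *Ccnd2* and *Myc* had none in the table. In these 10 windows the E2F motifs were matched only in *Mycn*, CTTTGAA only in *Mycn* and CTTTGAT only in *Cdk4*, while the E-box was matched in 3 windows, those of *Cdk4*, *Cdk6* (once) and 1 of the 2 starts of *Cdkn2c* (once). Thus *Cdk4*, whose ratio was −0.11, and *Mycn*, at −0.38, each held 1 TCF/LEF match.

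Among the tested inhibitors of the kinases, *Cdkn2c* had the lowest ratio. Signals of control and IWP-2 pool were 966 and 752 in replicate 1, and 851 and 736 in replicate 2. As in *Mycn*, both treated pools lay below both controls. The ratios were −0.36 and −0.21, with a mean of −0.29 (standard error 0.073, 95% interval −0.46 to −0.11), which is a fold of 0.820 with an interval from 0.726 to 0.926. The limma adjusted p was 0.149 and the unadjusted p 0.00657. *Cdkn2d*, another INK4 inhibitor that was singled out after its value had been seen, had a mean of −0.19 (limma adjusted p = 0.287). *Cdkn2b*, also of the INK4 family, had ratios of 0.14 and −0.01 (mean 0.06, limma adjusted p = 0.904). *Cdkn2a*, the remaining gene of the family, was too dim to be tested and had ratios of −0.19 and −0.40. *Cdkn2a* and *Cdkn2b* too were named after their values had been seen. *Cdkn2c*, *Cdkn2d* and the dim *Cdkn2a* thus lay below 0 in both arrays, as did 29.1% of all genes tested. None of the tested INK4 genes was called.

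By their brightest probes, the CIP/KIP inhibitors *Cdkn1a* and *Cdkn1b* each lay above 0 in the female array and below 0 in the male array. *Cdkn1a*, which p53 and other stress signals induce, gave signals of 1078 and 1331 in replicate 1 and of 1416 and 1360 in replicate 2. The female control pool was the low one, and the other 3 pools lay close together. The ratios were 0.30 and −0.06 (mean 0.12, standard error 0.097, 95% interval −0.11 to 0.36, limma adjusted p = 0.788), and 5.59% of all genes had a larger gap between the arrays. The other *Cdkn1a* probes were dim and read other positions of the gene. One, at chr17:29227986-29228045 of mm9, had signals of 41.1 and 35.6 in replicate 1 and of 49.5 and 37.4 in replicate 2, with ratios of −0.21 and −0.41. The other, at chr17:29235299-29235358, stayed between 26.6 and 30.2 in the 4 pools. With all probes averaged the *Cdkn1a* ratio was −0.041, so its sign depends on the probe. *Cdkn1b* had 2947 and 3166 in replicate 1 and 2819 and 2790 in replicate 2, with a mean ratio of 0.04 (standard error 0.070, 95% interval −0.12 to 0.21, limma adjusted p = 0.955). Its second probe lay at or near 15, the floor set for signals, in the 4 pools.

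**Figure D2:**
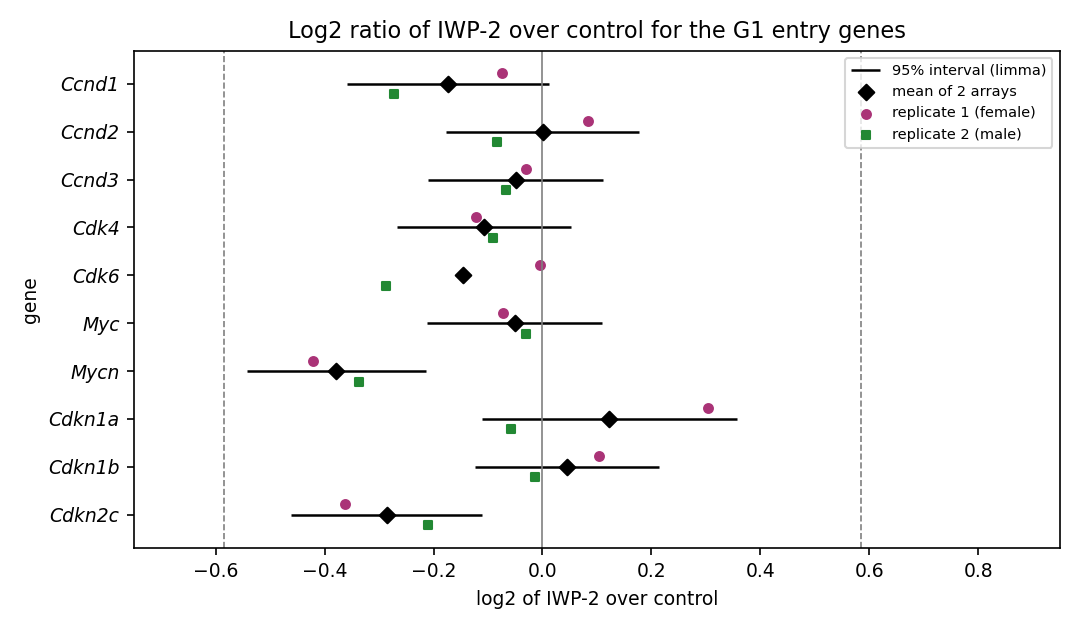
Log2 ratio of IWP-2 over control for each gene, with replicate 1 (female) as circles, replicate 2 (male) as squares, the mean as a diamond and limma's 95% interval as a line. Dashed lines mark a 1.5-fold difference. The intervals of *Mycn* (−0.54 to −0.21) and *Cdkn2c* (−0.46 to −0.11) lie below 0, the others include 0, and *Cdk6* has no interval because it was not tested.

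The genes around this core were described through lists written by hand. Of 37 other regulators of G1 and S phase entry, 34 were tested and 0 were called. Their median ratio was −0.05 in replicate 1 and −0.02 in replicate 2. At an unadjusted p under 0.05, 7 were lower and 0 higher, beside 6.64% of all genes that were lower and 6.27% that were higher at this level. The lowest was *Mxd3*, a member of the MAX network with expression in S phase, with signals of 385 and 303 in replicate 1 and of 383 and 308 in replicate 2 (mean ratio −0.33, standard error 0.067, limma adjusted p = 0.0936). The highest was *Gsk3b*, a kinase of the β-catenin destruction complex that also phosphorylates MYC and cyclin D1, at 0.14 (adjusted p = 0.476). *E2f1*, with −0.26, and *Ccne1*, the cyclin that acts after the D-type cyclins, with −0.23, were singled out after their values had been seen, and neither passed the test (adjusted p = 0.157 and 0.207).

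By their medians, the DNA replication and mitosis genes lay lower than the G1 entry genes, without a call for any single gene. Among 38 DNA replication genes, 37 were tested, 36 had a mean below 0 and 34 were below 0 in both arrays, as were 52.97% and 29.1% of all genes. Their median was −0.24 in both replicate 1 and replicate 2. Limma called 0 of them, and 31 were lower at an unadjusted p under 0.05, against 6.64% of all genes. *Pole*, a catalytic subunit of DNA polymerase ε, was the lowest, with signals of 1202 and 902 in replicate 1 and of 1232 and 963 in replicate 2 (mean ratio −0.38, standard error 0.067, limma adjusted p = 0.0621). *Rfc3*, a clamp loader subunit, was the highest at 0.00712. Of 37 mitosis genes, 35 were tested and all 35 had a mean below 0, 34 of them in both arrays. The medians were −0.25 and −0.29, 0 genes were called and 32 were lower at an unadjusted p under 0.05. They ranged from *Mki67*, which encodes the proliferation antigen Ki-67 (3530 and 2540 in replicate 1, 3536 and 2853 in replicate 2, mean ratio −0.39, standard error 0.074, limma adjusted p = 0.0778), to *Ndc80*, a kinetochore gene, at −0.04. Of the tested G1 entry genes, *Mycn* and *Cdkn2c* lay below the medians of both lists and the others above them. The genes of a list are measured in the same pools and vary together in dividing cells, so the counts are a description, and the difference between the lists was not tested.

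**Figure D3:**
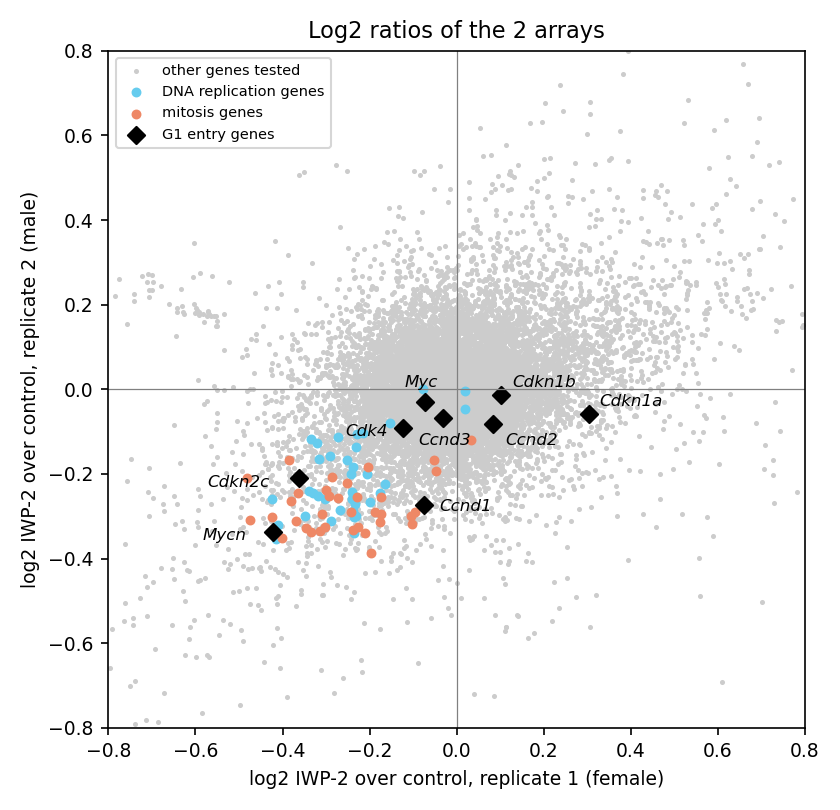
Log2 ratio in replicate 1 (x axis) against replicate 2 (y axis) for the genes tested, with G1 entry genes as labelled diamonds, DNA replication genes in light blue and mitosis genes in orange. *Mycn* and *Cdkn2c* lie among the replication and mitosis genes in the lower left, whereas *Myc*, *Ccnd2*, *Ccnd3* and *Cdk4* lie nearer to the origin and *Ccnd1* is low mainly in replicate 2. Outside the axes, which end at 0.8 in size, are 145 genes.

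Neither the growth genes that MYC factors regulate nor the p53 targets followed the replication genes in their medians. Of 28 MYC-regulated growth genes, most of them for ribosome assembly and nucleolar proteins, 27 were tested and 0 were called, also at an unadjusted p under 0.05. A mean below 0 was found in 21 of them, and 13 lay below 0 in both arrays, as did 52.97% and 29.1% of all genes. Above 0 in both arrays were 3, against 25.7% of all genes. Their medians were −0.02 and −0.05, and they ranged from *Ldha*, a lactate dehydrogenase gene, at −0.12 to *Ncl*, which encodes nucleolin, at 0.13. Of 22 p53 target genes, 19 were tested and 0 were called. Their medians were 0.04 and −0.05, and the means ranged from *Plk2* at −0.14 to *Gadd45a*, a stress-induced gene with signals of 1823 and 2278 in replicate 1 and of 1737 and 2122 in replicate 2, at 0.31 (standard error 0.067, limma adjusted p = 0.111). At an unadjusted p under 0.05, 3 p53 targets were higher and 0 lower, namely *Gadd45a* and, named after their values had been seen, *Perp* (0.28) and *Plk3* (0.19), and 6.27% of all genes were higher at this level.

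**Figure D4:**
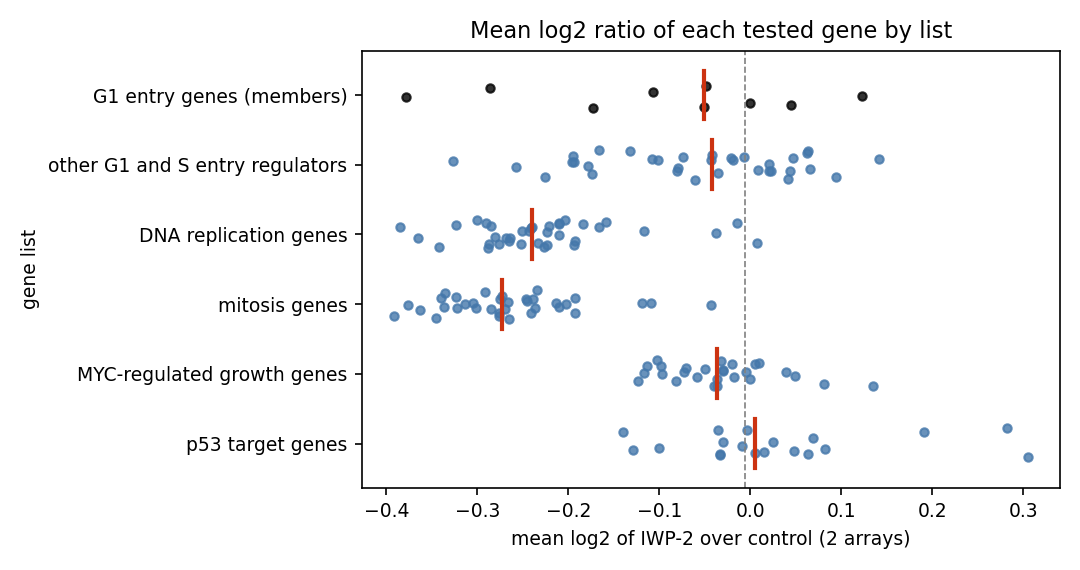
Mean log2 ratio of each tested gene, in rows by list, with a red bar at the median of the list and a dashed line at the median of all genes tested. The medians of the DNA replication (−0.24) and mitosis genes (−0.27) lie below those of the G1 entry genes (−0.05), the other regulators of G1 and S phase entry (−0.04), the MYC-regulated growth genes (−0.04) and the p53 targets (0.01).

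WNT feedback genes, which encode known targets and modulators of the pathway, were lower in the same pools. Of 14 listed genes, 10 were tested, all of them below 0 in both arrays, and limma called 8 lower and 0 higher. These were *Lgr5* (mean ratio −3.12), *Axin2* (−1.91), *Tcf7* (−1.36), *Wif1* (−1.33), *Rnf43* (−0.80), *Nkd1* (−0.79), *Notum* (−0.69) and *Apcdd1* (−0.54), with limma adjusted p from 1.61e-05 to 0.0243. The other tested genes of the list were *Nkd2* at −0.30 (adjusted p = 0.209), which is named only to complete it, and *Kremen1*, the highest, at −0.06. *Lgr5*, a WNT target and receptor of R-spondins, lay at the floor of 15, the lowest signal used, in the IWP-2 pool of replicate 1, so that its ratio there is set by the floor.

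Marker genes of the cell types in the explant also had ratios away from 0. The median of 13 urothelial markers was 0.35 in replicate 1 and 0.12 in replicate 2, with 0 called and 7 higher at an unadjusted p under 0.05, against 6.27% of all genes. Their summed signal was 153291 in the control and 191943 in the IWP-2 pool of the female array, and 185714 and 191462 in the male array. Of the urothelial markers, 2 had a mean below 0 and 9 lay above 0 in both arrays, against 52.97% and 25.7% of all genes. The 9 smooth muscle markers had medians of 0.05 and 0.23, and 0 were called. At an unadjusted p under 0.05, 2 were higher, against 6.27% of all genes. A mean below 0 was found in 0 of the smooth muscle markers, and 5 lay above 0 in both arrays. Of the 6 lamina propria fibrocyte markers, *Aldh1a2* was called lower, with −0.76 and −0.50 (limma adjusted p = 0.028), and the list had medians of −0.28 and −0.05. All 6 had a mean below 0, 5 of them in both arrays, as did 52.97% and 29.1% of all genes. At an unadjusted p under 0.05, 2 were lower, against 6.64% of all genes. The medians over both arrays were 0.04 for endothelium, 0.21 for macrophages, −0.18 for Schwann cells and 0.18 for red blood cells, with 0 genes called in these lists and 1, 2, 2 and 2 at an unadjusted p under 0.05. The part of these markers in the ratios of the cell cycle genes was not tested. In whole ureters, fewer cells of a type and less RNA per cell cannot be told apart.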

How the data were processed

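RNA of female and male ureter pools was hybridised on 2 two-colour Agilent arrays of 1 slide, each with a control and an IWP-2 pool. The deposited intensities were extracted by the authors with Agilent Feature Extraction (10.7.3.1 in the submitters' processing notes, 12.2.0.7 in the file headers), which subtracted background, detrended and dye-normalized them by linear scaling and LOWESS. The deposited log10 ratios of red over green served only as a check. The deposited series table, given the unit score, holds signed fold changes to 1 decimal whose direction was found from the arrays, and how it was made is not given in the sources used here. Its column medians are −1 and 1, that is, no change.

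Control spots and outlier-flagged spots (3.32% and 3.22%) were left out, and log2 ratios of the spots were loess-normalized within each array (span 0.3). The signals of a probe's spots were then averaged, these averages were floored at 15 and each gene was represented by its brightest probe. The ratio of replicate 2 was turned to IWP-2 over control. Ratios were tested against 0 with limma 3.58.1 in R 4.3.3 (lmFit, eBayes, two-sided, Benjamini-Hochberg over 14336 genes, 1 residual degree of freedom per gene). The ratio within an array pairs the control and treated pool. An exact two-sided sign-flip test of 2 arrays cannot go below p = 0.5, so the limma p-values rest on the spread shared between genes. Steps were tested on simulated data. Named were all 10 genes, every called gene of a gene list with its highest and lowest gene, and *Axin2* and *Porcn*. Of the marker lists only called genes and *Thy1* were named. *Cdkn2a*, *Cdkn2b*, *Cdkn2d*, *E2f1*, *Ccne1*, *Nkd2*, *Perp*, *Plk3* and *Thy1* were named after their values had been seen. Members and lists were chosen with earlier results of these data known. Alternatives covered background correction, normalization, filters, probe summary, pairing, the series table and each array alone. Coordinates of probes are those of the array files (mm9), and promoters are RefSeq windows of GRCm38.p6.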

Additional observations from a re-analysis of the deposited data

Results flagged for a closer look

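In 3 genes the female and the male array had opposite signs. The log2 ratio of *Cdkn1a* was higher by 0.36 in the female array (0.30 against −0.06), that of *Ccnd2* by 0.17 (0.08 against −0.08) and that of *Cdkn1b* by 0.12 (0.10 against −0.01). These differences were not tested, since each sex has 1 array, and sex and dye orientation cannot be told apart. Opposite signs occurred in 45.2% of all genes tested.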

How the results depend on the processing

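No G1 entry gene was called under any alternative that had a test, except the series table. Each array alone gave no test. Of all genes, 0 were called without the filter on dim probes, 0 with probes well above background and 1 without the replicate block. These settings could therefore hardly call a G1 entry gene. In the series table, 1321 of 14336 genes were called. Among them were 2 G1 entry genes, *Mycn* (−0.38) and *Cdk4* (−0.14), both with a limma adjusted p of 0.0162. Each of these had the same 1-decimal value in both arrays, so that rounding removed the spread between them. The log2 ratio of *Mycn* lay between −0.38 and −0.34 over 11 settings (adjusted p from 0.0162 to 0.660) and that of *Cdkn2c* between −0.32 and −0.25 (adjusted p from 0.132 to 0.867), and the unadjusted p was under 0.05 in 11 and 8 of them. The adjusted p of *Cdk4* ranged from 0.0162 to 1.00. The sign turned for *Cdkn1a* with the mean of all probes (−0.041) and for *Ccnd2* in the series table (−0.069).

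The number of genes called by limma, 179, became 117 without further normalization, 84 with the mean of all probes, 0 without the filter on dim probes, 0 with probes well above background and 1321 in the series table. Without the replicate block, with the pairing by array ignored and the 4 channels as separate samples, it was 1, and no G1 entry gene was called. Normexp gave 154 lower and 100 higher genes, and median centring 108 and 85, against 127 and 52. Applied to the signals as processed here, the filter of the study kept 62 genes, 51 lower and 11 higher. The study filtered its own normalized data, so its list of lower genes is not this one. Without a limit on the control signal the filter kept 114, and at 2-fold 19. With either array alone it kept 103 to 272 genes. The causes were not tested. *Cdk6*, with signals under 100, was flagged as well above background but lay below the limit set for testing. The second *Cdkn1b* probe, at or near the floor of 15, carried this flag in all 4 channels too. The flag therefore does not show that a probe was clearly detected.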
